A study of Rattus norvegicus with 9 samples.

Results

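Rat cortical neurons that had received alternating current stimulation (ACS) were compared with unstimulated neurons (control) across every gene that passed a filter on low counts. The comparison used 6 of the 9 libraries of the series, 3 per group, and 16284 of the 32623 gene entries of the table. The neurons were wild-type primary cortical cells of Wistar embryos of embryonic days 16 to 18, kept on glass coated with conductive indium tin oxide. Per the labels, ACS was a current of 3 µA at 20 Hz for 20 min, over 7 days, and control neurons received none. The sample labels give an age of 7 days in vitro, and the growth protocol gives 14 days. A further group of 3 libraries from neurons under direct current (DCS), which the labels call DES and give the same current, frequency and duration, entered the fit and is used where it shows what differed between the 2 kinds of stimulation. No label says whether a group's 3 libraries were separate cultures, and p-values here then reflect only how much these samples vary, which may be technical.

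Depolarized neurons admit calcium through glutamate receptors and voltage-gated channels, and calcium-dependent kinases then switch on immediate early genes, most of which encode short-lived transcription factors. These factors act on later genes for synapses, dendrites and secreted peptides, while dual-specificity phosphatases and Sprouty proteins damp the kinases that started the response. Neuronal activity is also known to change splicing, which is served by RNA-binding proteins stored in nuclear speckles.

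The estimated counts summed to 49039412 to 52938628 in the ACS libraries and to 53910745 to 68690760 in the control libraries. Mitochondrially encoded genes took 5.54% to 5.96% of the ACS counts and 5.56% to 6.8% of the control counts. Markers of excitatory cortical neurons, 13 genes of which none was at 0, summed to 1790 to 1870 CPM (counts scaled to library size) in the ACS libraries and 1720 to 1740 CPM in the control libraries. Markers of other cells were present too. The 11 astrocyte markers summed to 993 to 1320 CPM under ACS and 1140 to 1200 CPM in control, the 12 microglial markers to 228 to 235 CPM and 224 to 229 CPM, and the 13 markers of progenitors and dividing cells to 1450 to 1600 CPM and 1660 to 1760 CPM. The sums of excitatory neurons and of progenitors did not overlap between the groups, and their part in the results was not tested. In such bulk samples fewer cells of a type and less RNA per cell cannot be told apart.

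Under ACS, 461 genes were higher and 217 were lower than in unstimulated neurons by edgeR's quasi-likelihood test (adjusted p under 0.05). These 678 genes were 4.16% of those tested, 2.83% higher and 1.33% lower. Most changes were small, with a median log2 fold change of 0.41 among the higher genes and -0.33 among the lower ones, and 37 higher and 10 lower genes passed 1 on the log2 scale. At an unadjusted p under 0.05 and a change over 2-fold, the thresholds of the study, 162 genes were higher and 77 lower, 1.47% of those tested. In each of the 678 the 3 ACS libraries lay on 1 side of the 3 control libraries, as they did in 27.1% of all tested genes, and 20.8% of all tested genes had an unadjusted p under 0.05. The nearest genes to the threshold were Bicdl1 and Zfp28 inside it (adjusted p = 0.0497 each) and Ccnh and Plk5 outside it (adjusted p = 0.0502 each). Without control replicate 1, 2 or 3 the number of genes called was 163, 138 or 1431, without ACS replicate 1, 2 or 3 it was 191, 175 or 303, and without DCS replicate 2 it was 413. The 123 genes that passed whichever 1 library was left out, 107 higher and 16 lower, are said below to have held.

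**Figure D1:**
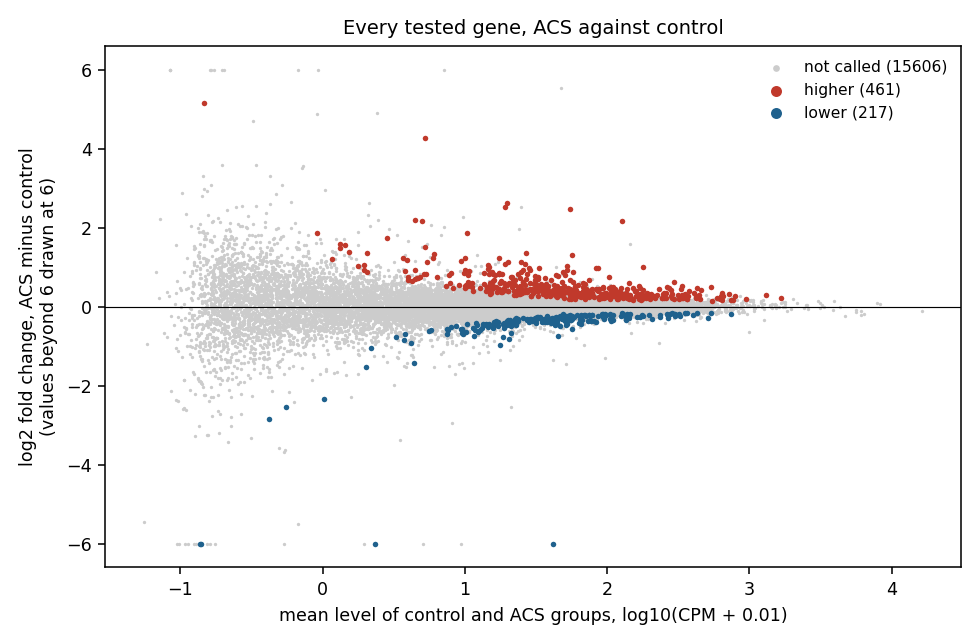
Each point is 1 of the 16284 tested genes, with the log10 of its mean CPM in the ACS and control groups (plus 0.01) on the x axis and its log2 fold change, ACS minus control, on the y axis. The 461 genes called higher (red) and the 217 called lower (blue) lie mostly within 1 of the zero line, and genes beyond 6 are drawn at 6.

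Immediate early transcription factors had the largest median rise of the pathway lists. Of 31 measured members 13 rose and 0 fell, against 2.83% higher in all tested genes, and the median over the 31 was 0.51 on the log2 scale. The list holds genes that the study itself picked from these libraries, so their count is not independent evidence of its direction. The promoters of 4 of its genes are shown because their genes rose and because they carry the letters bound by the activity-dependent factors CREB and SRF. The sequences are the 250 bases before each start site, 5′ to 3′ on the gene's strand, from RefSeq (build GRCr8). Capitals mark the cAMP response element TGACGTCA, its 5-base half-site (TGACG or CGTCA) and, in Egr2, a CArG box, the element of serum response factor. They lie at chr7:134259888-134260137 (Nr4a1, plus strand), chr19:40399123-40399372 (Ier2, plus strand), chr16:18769772-18770021 (Jund, minus strand) and chr20:21054442-21054691 (Egr2, minus strand).
Nr4a1: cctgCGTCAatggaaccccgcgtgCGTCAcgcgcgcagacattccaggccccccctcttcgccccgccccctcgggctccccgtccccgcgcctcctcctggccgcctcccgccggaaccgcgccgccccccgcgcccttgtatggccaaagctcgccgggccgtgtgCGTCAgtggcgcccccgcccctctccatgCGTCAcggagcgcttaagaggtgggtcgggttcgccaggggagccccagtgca
Ier2: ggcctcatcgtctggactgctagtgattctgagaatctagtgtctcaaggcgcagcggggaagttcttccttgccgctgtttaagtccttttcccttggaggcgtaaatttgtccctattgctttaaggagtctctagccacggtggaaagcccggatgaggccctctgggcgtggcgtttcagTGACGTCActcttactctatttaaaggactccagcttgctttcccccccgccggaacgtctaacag
Jund: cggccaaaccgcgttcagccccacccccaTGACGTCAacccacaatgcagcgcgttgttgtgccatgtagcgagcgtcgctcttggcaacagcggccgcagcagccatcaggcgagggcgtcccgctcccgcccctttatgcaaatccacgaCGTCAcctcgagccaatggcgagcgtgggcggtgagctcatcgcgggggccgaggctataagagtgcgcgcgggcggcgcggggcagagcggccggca
Egr2: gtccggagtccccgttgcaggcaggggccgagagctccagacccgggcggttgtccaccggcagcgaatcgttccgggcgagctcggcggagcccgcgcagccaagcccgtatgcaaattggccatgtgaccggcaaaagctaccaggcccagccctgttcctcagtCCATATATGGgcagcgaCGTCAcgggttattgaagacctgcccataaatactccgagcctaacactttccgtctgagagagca
The window searched in each of these genes was 300 bases, from 250 before the start site to 50 after it, on both strands, and a full element also contains both half-sites. Nr4a1 held 4 half-sites, Ier2 a full element 66 bases before the start, Jund a full element 221 bases before it and a further half-site, and Egr2 a CArG box beside a half-site. RefSeq had the promoters of 22 of the 31 genes, with none for Fos. A half-site was found in 14 of the 22 (63.6%), against 22% of all 27457 promoters and 30.7% of the 11095 promoters of tested genes. The full element was found in 4 (18.2%, against 1.91% and 3.06%) and a CArG box in 4 (18.2%, against 1.64% and 1.27%). Among all genes that rose under ACS, the half-site share was 33.4% of 356 promoters, and among those that fell it was 44.6% of 168. Nuclear speckle genes that rose had it in 9 of 13 promoters (69.2%). These matches describe letters in a window and say nothing of the binding of either factor.

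Egr1, a zinc finger factor induced by synaptic activity, had 35.7, 49.1 and 52.8 CPM in the control libraries and 207, 184 and 232 CPM in the ACS libraries. Fos, a subunit of the AP-1 factor, had 15.2, 14.1 and 20.6 CPM in control and 95.6, 79.3 and 103 CPM under ACS. Nr4a1, an orphan nuclear receptor, had 3.46, 5.59 and 7.4 CPM in control and 34.3, 26.8 and 41.2 CPM under ACS. In all 3 genes each ACS library stood far above each control library. The log2 fold changes were 2.18 for Egr1 (standard error 0.17, adjusted p = 0.000301), 2.48 for Fos (standard error 0.20, adjusted p = 0.000361) and 2.63 for Nr4a1 (standard error 0.28, adjusted p = 0.00184). Egr2, a relative of Egr1 expressed at low counts, had 1.03, 1.83 and 1.86 CPM in control and 7.99, 6.63 and 7.21 CPM under ACS, a log2 fold change of 2.21 (adjusted p = 0.00536). Smaller rises were found in Junb at 1.12 (adjusted p = 0.000687) and Ier2 at 1.13 (adjusted p = 0.00184). Jund was higher by 0.74 (adjusted p = 0.00369) and Jun by 0.60 (adjusted p = 0.00223), both of them AP-1 subunits with a high level in unstimulated neurons. Jun lay between 106 and 121 CPM in control and between 161 and 177 CPM under ACS. These 8 genes and Npas4 held, and the list's count ranged from 9 (without ACS replicate 1 or control replicate 2) to 14 (without control replicate 3).

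The other members that passed did so less firmly. Nr4a2, the receptor also known as Nurr1, rose by 0.51 and had an adjusted p of 0.0164, or 0.0633 without control replicate 2. Fosb, with 1.52 to 2.02 CPM in control and 7.23 to 9.68 CPM under ACS, rose by 2.17 (adjusted p = 0.0194, or 0.0978 without control replicate 2). Egr3 rose by 1.52 (adjusted p = 0.0384, or 0.141 without control replicate 2) and Nfil3, a basic leucine zipper repressor, by 0.31 (adjusted p = 0.0246, or 0.102 without control replicate 1). In all 4 the 3 ACS libraries were still the highest of the 6.

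The same genes were tested between ACS and DCS, since both groups had received current. Of the 31 members 10 were higher under ACS than under DCS, against 0.51% higher in all tested genes in that comparison. Fos had 12.6, 13.3 and 20.2 CPM under DCS, inside or just below its control range, and differed from ACS by 2.59 on the log2 scale (adjusted p = 0.000822). Egr1 had 33.1 to 46.9 CPM under DCS and differed from ACS by 2.41 (adjusted p = 0.00034). Jund was an exception in level, with 91, 92.2 and 97.5 CPM under DCS, beside 69.4 to 91.3 CPM in control and 123 to 136 CPM under ACS, and the ACS and DCS groups did not pass the test for it (log2 fold change 0.47, adjusted p = 0.0677). The comparison of ACS with DCS shares the ACS libraries with the main one.

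**Figure D2:**
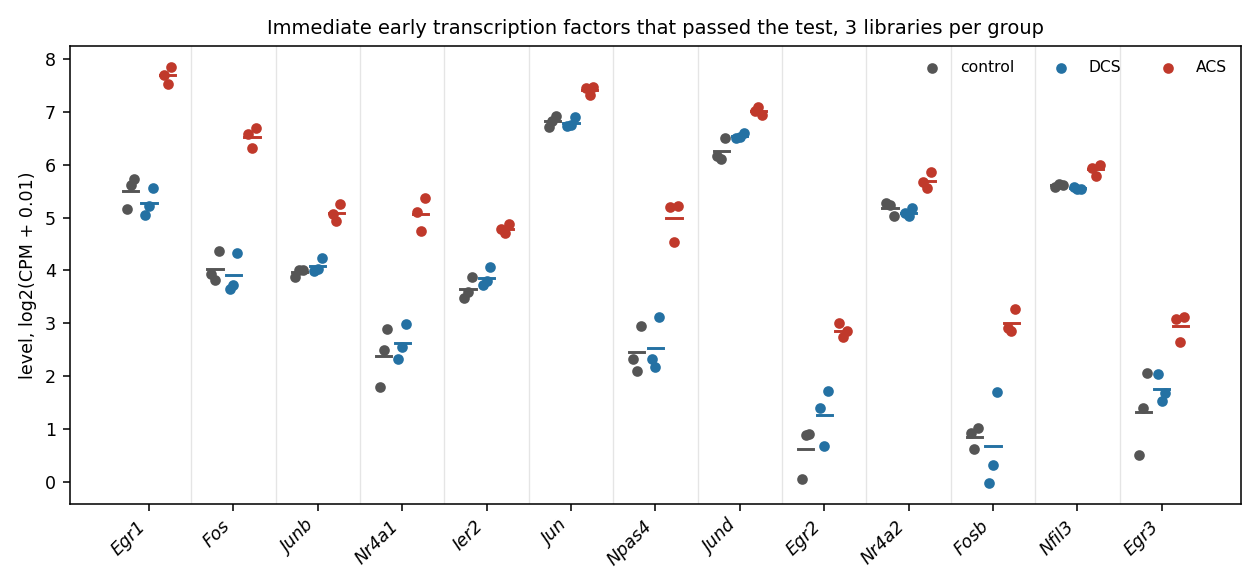
Levels of the 13 immediate early transcription factors that passed the test, as log2(CPM + 0.01) on the y axis, with 1 point per library and a bar at the group mean for control (grey), DCS (blue) and ACS (red). In each gene the 3 ACS libraries lie above all 3 control libraries, as for Egr1 at 184 to 232 CPM over 35.7 to 52.8 CPM.

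Feedback inhibitors of early signaling rose in part. Of 31 measured members 5 rose (16.1%) and 1 fell (3.23%), beside 2.83% and 1.33% of all tested genes. The median was 0.08 on the log2 scale. Dusp6, a phosphatase that inactivates the kinase ERK, had 27, 27 and 29.1 CPM in control and 45.1, 41.8 and 50 CPM under ACS. The groups did not overlap, and the gene rose by 0.72 (adjusted p = 0.00341) and held. Sik1, a salt-inducible kinase that restrains CREB coactivators, rose by 0.77 (adjusted p = 0.0109, or 0.0632 without control replicate 2), and the clock repressor Per1 by 0.40 (adjusted p = 0.0318, or 0.131 without control replicate 2). Spry1, a Sprouty inhibitor of growth factor signaling, rose by 0.53 (adjusted p = 0.039, or 0.121 without ACS replicate 1). Zfp36l2, which encodes a protein that destabilizes mRNA, fell by 0.76 on the log2 scale (adjusted p = 0.0285, or 0.119 without control replicate 2). It was also low under DCS, at 10.8 to 15.1 CPM, beside 11.9 to 15.1 CPM under ACS and 19.1 to 25.2 CPM in control. Without control replicate 1 or 2 the number of members that rose was 2.

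Targets of serum response factor, which answers to growth signals and to actin, gave 3 higher and 0 lower of 21 (median 0.06). The 3 were 14.3% of the list, beside 2.83% higher in all tested genes, and they held. Flna, an actin crosslinker, had 376, 374 and 422 CPM in control and 518, 509 and 545 CPM under ACS and rose by 0.42 (adjusted p = 0.00342). Fhl1, a LIM-domain protein of muscle and neurons, rose by 0.45 (adjusted p = 0.0038), with 92 to 101 CPM in control and 125 to 140 CPM under ACS. The other was Ccn1, a secreted matrix protein.

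Later activity-induced effectors did not follow the early factors as a list. Of 29 members 1 rose, Arc, and 0 fell, with a median of -0.06, so the share of 1 in 29 was near the 2.83% of all genes. Arc is itself an immediate early gene, so this 1 call is not of a later effector. Arc, a regulator of glutamate receptor uptake, had 2.52, 1.6 and 3.01 CPM in control and 6.1, 5.04 and 5.07 CPM under ACS. Its rise of 1.18 (adjusted p = 0.0456) was not past the test in 6 of the 9 fits without 1 library, the highest at 0.149 without control replicate 2. Bdnf, the neurotrophin gene induced by calcium, had 3.65, 3.59 and 3.72 CPM in control and 2.26, 2.66 and 4.4 CPM under ACS. The groups overlapped, and the difference of -0.23 (standard error 0.30) did not pass the test (adjusted p = 0.707). Nptx2, a pentraxin that clusters glutamate receptors, had 15.9 to 21.4 CPM in control and 15.2 to 19.7 CPM under ACS (log2 fold change -0.06, adjusted p = 0.876). Its sign turned without ACS replicate 2 (0.04) and without control replicate 3 (0.08). The list of neurotrophins, Gdnf family members and their receptors had 0 of 29 called by edgeR and by DESeq2, with 0 higher and 3 lower at an unadjusted p under 0.05. Ntf3, neurotrophin-3, was at 3.64 to 4.24 CPM in control and 2.33 to 5.06 CPM under ACS (-0.04, adjusted p = 0.942), and its sign turned without some libraries.

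Genes of calcium and calmodulin-dependent kinases and CREB gave 2 higher and 1 lower of 33. The shares were 6.06% and 3.03%, beside 2.83% and 1.33% of all tested genes. Camkv, a kinase-like protein of dendritic spines, rose by 0.29 (adjusted p = 0.00978, or 0.0564 without control replicate 2), and Crtc2, a CREB coactivator, by 0.40 (adjusted p = 0.0143, or 0.0791 without control replicate 2). Creb1 itself had 21.4 to 23.6 CPM in control, 15.9 to 19.1 CPM under ACS and 23.4 to 24.2 CPM under DCS. It was lower under ACS than in control by -0.36 on the log2 scale (adjusted p = 0.0456, or 0.162 without control replicate 1) and lower than under DCS by -0.46 (adjusted p = 0.0491).

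Proteins of nuclear speckles, the bodies in which splicing factors are stored, rose as often as the early factors but by less. Of 34 measured members 14 rose (41.2%, beside 2.83% of all tested genes) and 0 fell (1.33% of all tested genes). The median was 0.12. Of the 34, 10 were also higher under ACS than under DCS, beside 0.51% of all tested genes in that comparison. Of the 14, 11 held, and the count ranged from 11 (without ACS replicate 1 or 3) to 16 (without control replicate 3). Clasrp, a binding partner of the Clk kinases, had 30.2, 29.1 and 35.8 CPM in control and 54.2, 55.3 and 56.2 CPM under ACS. Ddx39b, the helicase UAP56 that links splicing to mRNA export, had 559, 562 and 588 CPM in control and 709, 733 and 734 CPM under ACS. Srrm2, a scaffold of speckles, had 1188, 1180 and 1164 CPM in control and 1445, 1420 and 1456 CPM under ACS. None of these groups overlapped, and the spread within each was small beside the gap. Leng8 and Akap8l, with the smallest p-values of the list, rose by 0.99 and 0.68. The log2 fold changes were 0.80 for Clasrp (adjusted p = 0.00156), 0.35 for Ddx39b (adjusted p = 0.00179) and 0.29 for Srrm2 (adjusted p = 0.00243). The same 3 genes differed between ACS and DCS by 0.57, 0.25 and 0.32 (adjusted p = 0.0187, 0.0224 and 0.00453).

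The proteins that build the spliceosome moved in both directions. Of 18 genes of the U1 particle and its partners 4 rose, among them Snrnp70, Tia1 and Prpf40b, and 2 fell. The shares were 22.2% and 11.1%, beside 2.83% and 1.33% of all tested genes. Without ACS replicate 1 or 2 or control replicate 2 only 1 rose. The 2 that fell encode Sm proteins, which form the ring on the small nuclear RNAs. Snrpd1 had 85.6, 86.8 and 74.3 CPM in control and 63.2, 60.7 and 67.9 CPM under ACS (log2 fold change -0.36, adjusted p = 0.0251, or 0.109 without control replicate 2). Snrpf had 23.1 to 26.1 CPM in control and 17.6 to 19.6 CPM under ACS (-0.42, adjusted p = 0.0271, or 0.112 without control replicate 1). Among 13 SR proteins, which bind exons and recruit the spliceosome, Srsf5 rose by 0.42 (adjusted p = 0.00483) and held, while Srsf10 fell by 0.30 on the log2 scale (adjusted p = 0.021, or 0.109 without control replicate 2). Clk1, the 1 called of 9 kinases of SR proteins, fell by 0.57 on the log2 scale and held. Tardbp, the gene of the RNA-binding protein TDP-43, was at 140 to 149 CPM in control and 121 to 124 CPM under ACS, a log2 fold change of -0.24 (adjusted p = 0.0158, or 0.0797 without control replicate 2).

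Splicing regulators known from neurons, a list that also holds genes best known from other cells, gave 5 higher and 0 lower of 30. The 5 were 16.7% of the list, beside 2.83% higher in all tested genes. Rbm24, best known from muscle, had 10.7, 11.6 and 10.5 CPM in control and 20.9, 19.6 and 19.4 CPM under ACS, a log2 fold change of 0.87 (adjusted p = 0.00134). Celf5 rose by 0.39 (adjusted p = 0.00411), and Rbfox3, whose protein is the neuronal marker NeuN, had 48.4 to 53.4 CPM in control and 65.3 to 73.5 CPM under ACS, a rise of 0.43 (adjusted p = 0.0081). These 3 held. Rbfox1 rose by 0.48 (adjusted p = 0.0464, or 0.15 without ACS replicate 2) and the RNA-binding protein Msi1, better known from neural progenitors, by 0.32 (adjusted p = 0.0109, or 0.061 without control replicate 2).

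**Figure D3:**
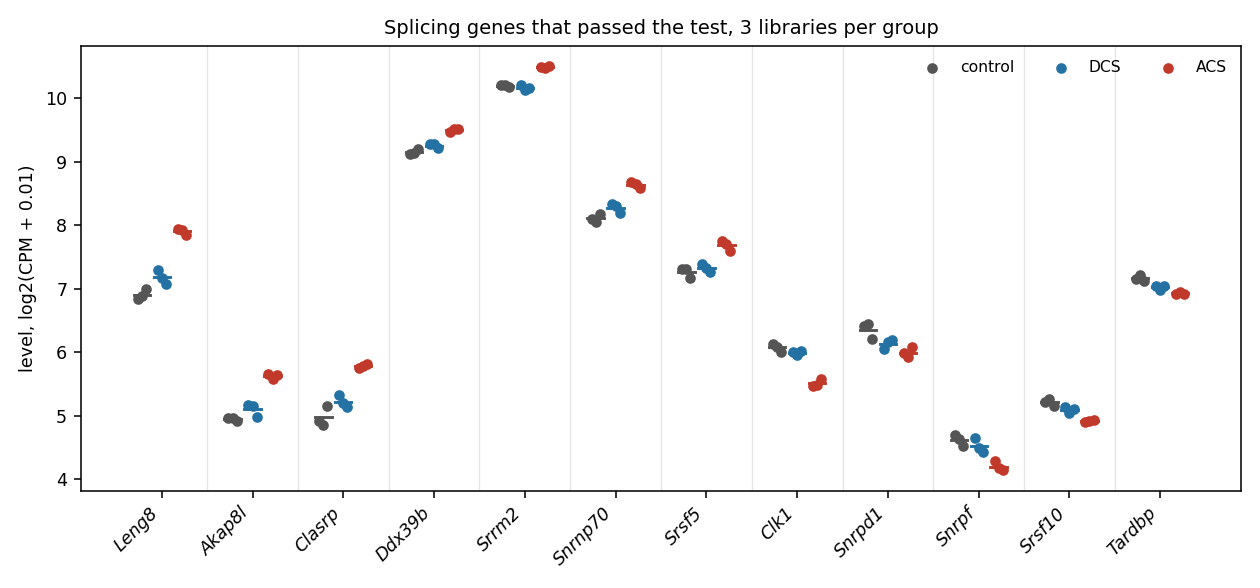
Levels of 12 splicing genes that passed the test, as log2(CPM + 0.01) on the y axis, with 1 point per library and a bar at the group mean for control (grey), DCS (blue) and ACS (red). The 7 genes on the left have their ACS libraries above the control libraries and the 5 on the right below them, as for Snrpd1 at 60.7 to 67.9 CPM under 74.3 to 86.8 CPM.

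The called genes of the presynaptic and postsynaptic lists were higher under ACS. Presynaptic release genes gave 5 higher (10.6%, beside 2.83% of all tested genes) and 0 lower of 47. Of the 47, 37 were above 0, with a median of 0.13. The 5 became 3 without any of 6 libraries, 10 without DCS replicate 3 and 12 with DESeq2. In this list 23 members had all ACS libraries above all control libraries and 1 had them below, where 14% and 13% of all tested genes did. Tspoap1, which tethers calcium channels at release sites, had 43.2, 44.6 and 47.1 CPM in control and 66.8, 71.1 and 70.5 CPM under ACS. It rose by 0.63 (adjusted p = 0.0014) and was higher than under DCS by 0.47 (adjusted p = 0.0119). Dennd1a, which activates a Rab protein of vesicle recycling, stood apart because it was high under both currents, at 36.5 to 38.1 CPM in control, 61.2 to 66.3 CPM under ACS and 61.4 to 65 CPM under DCS. Its change under ACS was 0.79 (adjusted p = 0.000133), and its difference between ACS and DCS was 0.02 (standard error 0.05, adjusted p = 0.919). Fcho1, an initiator of clathrin-coated pits, rose by 0.78 (adjusted p = 0.00254). These 3 held.

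Postsynaptic scaffolds gave 7 higher (18.9%, beside 2.83% of all tested genes) and 0 lower of 37 (median 0.08). Mink1, a kinase of the postsynaptic density, had 88.7 to 94.2 CPM in control and 129 to 132 CPM under ACS and rose by 0.50 (adjusted p = 0.00184), and it held. Nlgn2, the neuroligin of inhibitory synapses, rose by 0.22 (adjusted p = 0.0414, or 0.159 without control replicate 2). Without ACS replicate 2, control replicate 1 or control replicate 2 the count for this list was 2, and without control replicate 3 it was 11.

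Among ion channels, the voltage-gated calcium channels that passed the test were higher under ACS. Of 24 members 3 rose (12.5%, beside 2.83% of all tested genes) and 0 fell, and 19 were above 0 with a median of 0.23. Groups did not overlap in 13 members, all 13 with ACS higher, where 14% of all tested genes were higher and 13% lower in this way. Cacna1d, an L-type channel that couples depolarization to transcription, had 63.5, 68.3 and 66.3 CPM in control and 89.8, 85.9 and 90.7 CPM under ACS. It rose by 0.43 (adjusted p = 0.0109, or 0.0532 without control replicate 1) and was higher than under DCS by 0.42 (adjusted p = 0.0345). The T-type channel Cacna1h rose by 0.33 (adjusted p = 0.0312, or 0.125 without control replicate 2) and the P/Q-type channel Cacna1a by 0.35 (adjusted p = 0.0485, or 0.157 without ACS replicate 1). The count was 0 without control replicate 1, 7 without control replicate 3 and 11 with DESeq2. Sodium channels had 0 of 11 called by edgeR (1 at an unadjusted p under 0.05 and 1 with DESeq2), and GABA receptors 0 of 17 (2 higher and 3 lower at an unadjusted p under 0.05, and 1 with DESeq2). Potassium channels had 1 of 75 (Kcnt1). Glutamate receptors had 1 of 26, the kainate receptor subunit Grik1, with 5.46 to 7.09 CPM in control and 9.25 to 9.96 CPM under ACS (0.60, adjusted p = 0.0355, or 0.126 without control replicate 1).

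**Figure D4:**
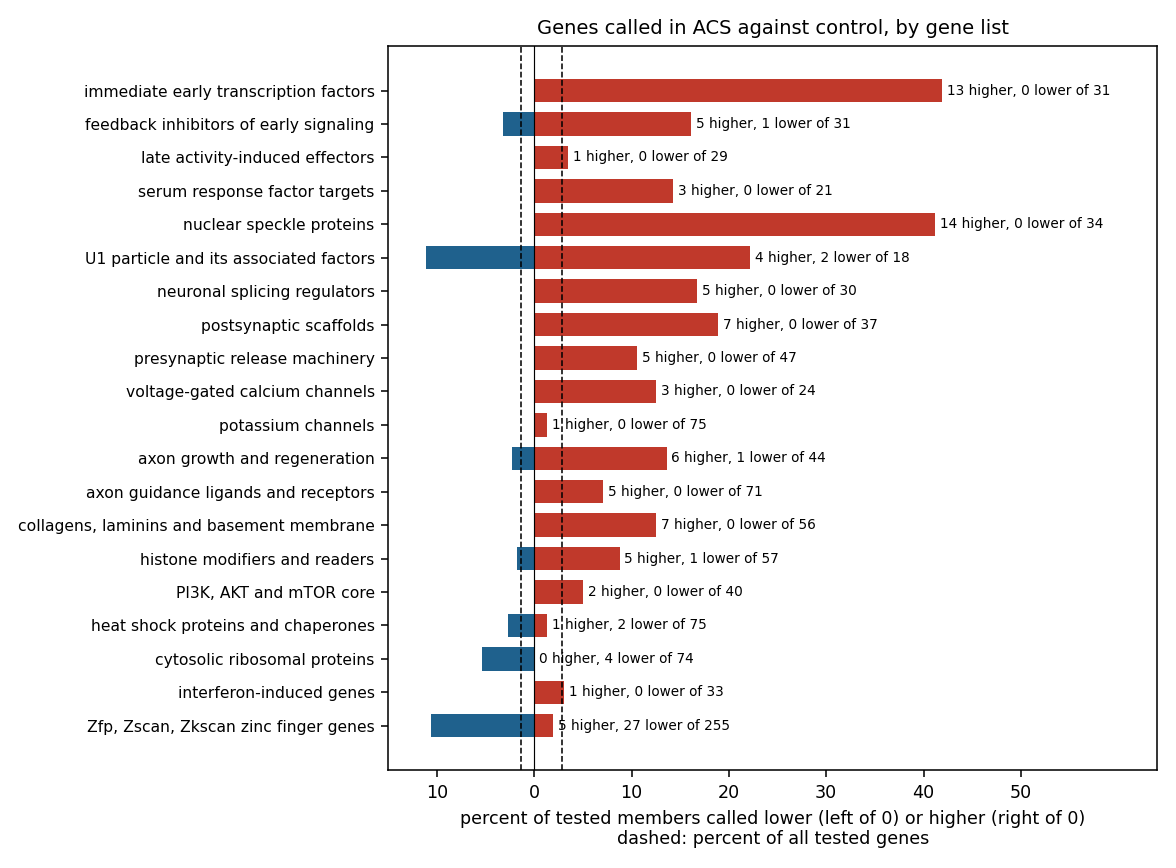
For 20 gene lists the bars give the percent of tested members called higher (right of 0) or lower (left of 0) under ACS, with the counts beside them. Dashed lines mark the share of all tested genes, 2.83% higher and 1.33% lower. The bars of the early factors (13 of 31) and the speckle proteins (14 of 34) reach farthest to the right, and that of the Zfp, Zscan and Zkscan zinc finger genes, a list chosen after its values were seen, has 27 of 255 to the left.

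The study asked about neurite growth, and genes of axon growth and regeneration gave 6 higher and 1 lower of 44 (median 0.12). The shares were 13.6% and 2.27%, beside 2.83% and 1.33% of all tested genes. Gap43, the growth-associated protein of axon tips, had 1036, 1005 and 961.5 CPM in control and 1168, 1127 and 1079 CPM under ACS. All ACS libraries lay above all control libraries, but the rise of 0.17 (standard error 0.06) did not pass the test (adjusted p = 0.168). The study reported higher GAP43 under ACS by RT-qPCR and by western blot, and printed the same primer sequences for GAP43 and GAPDH. Dpysl5, a collapsin response mediator of growth cones, had 601 to 678 CPM in control and 768 to 839 CPM under ACS, a change of 0.33 (adjusted p = 0.0104, or 0.0503 without ACS replicate 2). It was at 765 to 805 CPM under DCS. Ptprd, a receptor phosphatase of axons and synapses, rose by 0.48 (adjusted p = 0.0182, or 0.0792 without ACS replicate 2) and the adhesion molecule L1cam by 0.17 (adjusted p = 0.0355, or 0.153 without control replicate 2). Socs3, an inhibitor of cytokine signaling that restrains axon regrowth, had 3.57 to 4.45 CPM in control and 2.36 to 2.48 CPM under ACS (-0.77, adjusted p = 0.0293, or 0.117 without control replicate 1). Without ACS replicate 2 the number of members that rose was 0. Axon guidance genes gave 5 higher (7.04%) and 0 lower of 71, led by the semaphorin receptor Plxna3 at 0.50 (adjusted p = 0.0109, or 0.0619 without control replicate 2). That count of 5 was 0 without control replicate 1 or 2 and 11 without control replicate 3.

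Genes that control actin and microtubules included the gene with the smallest p-value among those higher under ACS. Arhgef1, which activates the GTPase RhoA downstream of G protein-coupled receptors, had 39.8, 41.5 and 41.2 CPM in control and 72.6, 72.5 and 79.2 CPM under ACS. It rose by 0.87 (standard error 0.05, adjusted p = 9.785e-05), lay at 49.3 to 50.3 CPM under DCS, and differed from DCS by 0.59 (adjusted p = 0.00124). Carmil3, a regulator of actin capping protein in neurons, had 57.7, 54.4 and 56.2 CPM in control and 113, 109 and 111 CPM under ACS (0.98, adjusted p = 0.000301). Kifc2, a kinesin of neurons, had 57.3, 54 and 61.4 CPM in control and 115, 116 and 112 CPM under ACS (0.99, adjusted p = 0.000361). The libraries of a group differed little in these genes, and all 3 held. As lists, the Arhgef exchange factors and Arhgap activating proteins of small GTPases gave 4 higher and 0 lower of 53, kinesins and dyneins 1 and 1 of 50, and tubulins 1 and 0 of 16, the 1 being Tuba1c at 0.26 (adjusted p = 0.0188, or 0.0844 without control replicate 1).

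The study measured PI3K and AKT and their phosphorylated forms as proteins, and found neurite growth under ACS attenuated by the inhibitor LY294002. It also reported the PI3K-Akt pathway among those enriched in its differentially expressed genes. Levels of mRNA do not measure phosphorylation. At the mRNA level the list of PI3K, AKT and mTOR genes gave few calls. Of 40 members 2 rose (5%, beside 2.83% of all tested genes) and 0 fell, with a median of -0.02. Of 291 genes that the table assigns to the KEGG pathway PI3K-Akt signaling 4.12% were called, beside 4.16% of all genes. At the study's thresholds, an unadjusted p under 0.05 and over 2-fold, 6 of the 291 passed, where 1.47% of all tested genes did. Rps6kb2, an S6 kinase, rose by 0.61 (adjusted p = 0.0104, or 0.0572 without control replicate 2) and the transcription factor Foxo1 by 0.32 (adjusted p = 0.0467, not past the test in any fit without 1 library, the highest 0.153 without control replicate 1). Pik3ca, the catalytic subunit, had 129 to 146 CPM in control and 116 to 122 CPM under ACS (-0.22, adjusted p = 0.053). Akt1 had 335, 334 and 353 CPM in control and 339, 324 and 352 CPM under ACS, a difference of -0.01 with a standard error of 0.04, and its groups overlapped. Akt2 and the regulatory subunit Pik3r1 did not pass either (log2 fold changes of -0.01 and 0.01), and the sign was not stable for Akt1, Akt2 and Pik3r1. In the KEGG pathway MAPK signaling, 19 of 267 genes rose and 1 fell, 7.49% called in all.

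Of 11 genes chosen for RT-qPCR 6 rose and 0 fell, and of 10 network hubs 7 rose and 0 fell. The study chose both lists with results of these libraries known, and they share genes, which bars reading their counts as separate support for a direction. Dmpk, a protein kinase of muscle and brain, had 12.5, 12 and 12.4 CPM in control and 25.6, 26.4 and 25.6 CPM under ACS, a rise of 1.07 (standard error 0.08, adjusted p = 0.000213) that held. The other genes that rose are early factors and Arc, described above. Among those that did not pass, Ager, the receptor for advanced glycation end products, had 1.44, 2.72 and 2.76 CPM in control and 4.48, 5.94 and 5.29 CPM under ACS. Its groups did not overlap, and its change of 1.18 had an adjusted p of 0.0856. Gnb3, a G protein subunit of cone photoreceptors, was at 1.46 to 1.72 CPM in control and 2.47 to 4.13 CPM under ACS (1.05, adjusted p = 0.0789). Gngt1, a rod G protein subunit, had 0.542, 2.4 and 1.43 CPM in control and 0.515, 0.696 and 0.133 CPM under ACS (-1.70, adjusted p = 0.377). Its groups overlapped.

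Collagens, laminins and basement membrane genes gave 7 higher (12.5%, beside 2.83% of all tested genes) and 0 lower of 56 (median 0.15). P3h3, a hydroxylase that modifies collagen, had 33.4, 32 and 38.1 CPM in control and 68.4, 74 and 68.7 CPM under ACS, a rise of 1.03 (adjusted p = 0.00081) that held. Col4a1 and Col4a2, the paired chains of basement membrane collagen, rose by 0.34 and 0.38 (adjusted p = 0.0202 and 0.025), and neither passed without control replicate 1 (0.0948 and 0.0989). Without ACS replicate 2 this list had 1 member called. Among matrix proteases and their inhibitors 3 of 49 rose (6.12%) and 1 fell (2.04%, beside 1.33% of all tested genes). Adam11, a catalytically inactive neuronal ADAM protein, had 34.3, 36.6 and 37.4 CPM in control and 67.5, 68.8 and 69.1 CPM under ACS (0.92, adjusted p = 0.000361), and Reck, an inhibitor of matrix metalloproteinases, rose by 0.88 (adjusted p = 0.00536). Both held. Markers of endothelial and mural cells, which also make basement membrane, summed to 8.12 to 8.86 CPM under ACS and 5.9 to 7.37 CPM in control with Rgs5 at 0. Markers of meningeal fibroblasts, a list that holds collagen genes, summed to 93 to 102 CPM under ACS and 98.3 to 110 CPM in control. The part of either cell type in these changes was not tested.

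Other genes with small p-values came from outside these lists. Gipr, the receptor of the gut hormone GIP, had 15.9, 14.5 and 14.3 CPM in control and 41.6, 37.5 and 36.4 CPM under ACS, a rise of 1.37 (adjusted p = 0.000361). Zmynd10, a factor for the assembly of ciliary dynein, had 5.63 to 6.47 CPM in control, 13.6 to 14.9 CPM under ACS and 8.98 to 9.3 CPM under DCS. It rose by 1.23 against control (adjusted p = 0.000361) and by 0.63 against DCS (adjusted p = 0.0273). Ca11, an inactive carbonic anhydrase relative of brain, rose by 0.93 (adjusted p = 0.000422), Tmem145, a membrane protein, by 0.88 (adjusted p = 0.000624) and the pseudokinase Nrbp2 had 30.5 to 34 CPM in control and 71.5 to 84.9 CPM under ACS (adjusted p = 0.00241). Hdac10, a deacetylase of polyamines, had 10.3, 10.2 and 10.4 CPM in control and 22.5, 24.7 and 25.7 CPM under ACS (1.23, adjusted p = 0.00287). It led the histone modifiers and readers, of which 5 of 57 rose and 1 fell. The shares were 8.77% and 1.75%, beside 2.83% and 1.33% of all tested genes. All genes named in this paragraph held.

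The 217 genes that were lower under ACS changed by less and held less often. Phf13, a reader of methylated histone H3, had 24.8, 27.4 and 26.3 CPM in control, 14.3, 13.8 and 16.6 CPM under ACS and 24.9 to 25.6 CPM under DCS. Tob2, an antiproliferative protein that recruits deadenylases to mRNA, had 24.5, 25.2 and 28.3 CPM in control, 15.6, 16.2 and 17.1 CPM under ACS and 24.9 to 27.5 CPM under DCS. For both genes the ACS libraries were apart from the other 6. Phf13 fell by 0.81 on the log2 scale (adjusted p = 0.00156) and Tob2 by 0.67 (adjusted p = 0.00268). Csmd1, a synaptic complement inhibitor, had 73, 76.8 and 77.1 CPM in control and 56.7, 53.5 and 56 CPM under ACS (-0.45, adjusted p = 0.00287), and the cAMP phosphodiesterase Pde4d had 46.4 to 50.1 CPM in control and 36.7 to 38.7 CPM under ACS (-0.36, adjusted p = 0.00784). Stag2, a cohesin subunit, was lower by -0.33 (adjusted p = 0.00745) and the RNA quality control protein Ro60 by -0.41 (adjusted p = 0.0038). All of these held.

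Chaperone and stress lists had few called genes in number. In the unfolded protein response 1 of 31 rose and 2 fell (3.23% and 6.45%, beside 2.83% and 1.33% of all tested genes). Pdia4, a disulfide isomerase of the endoplasmic reticulum, had 125, 124 and 119 CPM in control and 98.8, 92.1 and 99.6 CPM under ACS (-0.34, adjusted p = 0.00608) and held, and the chaperone Hspa5 (BiP) was at 516 to 589 CPM in control and 447 to 471 CPM under ACS (-0.29, adjusted p = 0.021, or 0.0984 without control replicate 2). Heat shock proteins and chaperones gave 1 higher (1.33%) and 2 lower (2.67%) of 75 (median -0.08), with 4 higher and 19 lower at an unadjusted p under 0.05. Their lower count was 0 without any of 5 libraries, 10 without control replicate 3 and 8 with DESeq2. Cytosolic ribosomal proteins gave 0 higher and 4 lower (5.41%) of 74 (median -0.08). In this list 29 members had ACS libraries below all control libraries and 3 above (13% and 14% of all tested genes). Rpl18 had 182 to 189 CPM in control and 152 to 163 CPM under ACS (-0.25, adjusted p = 0.0182, or 0.0861 without ACS replicate 2), and ribosomal protein genes have many processed copies among which reads can be split. The count for this list was 0 without ACS replicate 2, control replicate 1 or control replicate 2, 8 without DCS replicate 3 and 12 with DESeq2.

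The called genes of the metabolic lists were few and mostly lower. Glycolysis and hypoxia genes gave 1 higher and 2 lower of 31 (6.45% lower, beside 1.33% of all tested genes), and 0 lower without ACS replicate 2, control replicate 1 or control replicate 2. Ldha, lactate dehydrogenase, had 288 to 292 CPM in control and 246 to 248 CPM under ACS (-0.23, adjusted p = 0.0117, or 0.0601 without ACS replicate 1). Txnip, a glucose-responsive inhibitor of thioredoxin, had 25.8, 24.7 and 20.1 CPM in control and 14.2, 10.6 and 11.1 CPM under ACS (-0.98, adjusted p = 0.0118, or 0.0619 without control replicate 2). Cholesterol synthesis gave 0 higher and 2 lower of 27 (7.41% lower), with 11 members whose ACS libraries lay below all control libraries (13% of all tested genes did), and the 2 became 0 to 5 without 1 library and 6 with DESeq2. The nuclear-encoded respiratory chain gave 0 higher and 1 lower of 79, with 5 higher without control replicate 3. The 13 mitochondrially encoded genes had 0 called by edgeR (2 lower at an unadjusted p under 0.05, 2 with DESeq2, and 5 with edgeR without control replicate 3).

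Immune lists held few called genes. Of 33 interferon-induced genes 1 rose, Irf3 (3.03%, beside 2.83% of all tested genes), and 0 fell. The median was nevertheless -0.54, and 15 members had all ACS libraries below all control libraries, as 13% of all tested genes did. The lower count was 5 without DCS replicate 3 and 2 with DESeq2. Mx1, an interferon-induced GTPase, had 6.92, 26.6 and 10.6 CPM in control and 6, 3.62 and 5.35 CPM under ACS, and control replicate 2 carried the highest value (-1.56, adjusted p = 0.334). Irf3, a factor that induces interferon and not a typical target of it, had 24.4, 23.8 and 24.1 CPM in control and 36.9, 40.5 and 38 CPM under ACS (0.67, adjusted p = 0.00192) and held. Inflammatory cytokines and targets gave 0 higher and 1 lower of 31 (3.23%, beside 1.33% of all tested genes). The 1 was Il1b, with 84.7 to 89.7 CPM in control and 62.9 to 69.9 CPM under ACS (-0.37, adjusted p = 0.0367, or 0.132 without control replicate 2).

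Of 11 astrocyte markers 3 rose (27.3%, beside 2.83% of all tested genes) and 0 fell. Of the 11, 7 were above 0, and the changes ran from -0.33 to 0.53. The number that rose was 0 without ACS replicate 1, control replicate 1 or control replicate 2. Among the 3, Fgfr3 and Gfap rose by 0.45 and 0.25 (adjusted p = 0.0185 and 0.0281). The microglial complement gene C1qa rose by 0.76 (adjusted p = 0.0252, or 0.0916 without control replicate 2), 1 of 12 microglial markers. Progenitor and dividing cell markers gave 0 higher and 3 lower of 13 (23.1%, beside 1.33% of all tested genes), Hes5, Mki67 and Vim. Their lower count ranged from 1 to 5 without 1 library, and only Hes5 held. Of 14 markers of GABAergic interneurons 0 were called by edgeR (4 higher at an unadjusted p under 0.05, and 3 with DESeq2). Rod photoreceptor markers, 17 genes in the table with none at 0 in all 6 libraries, summed to 715 to 770 CPM under ACS and 748 to 792 CPM in control. The list holds Gnb1, which is not specific to rods, and the cone gene Gnb3, so this sum does not measure rod transcripts. Of the 15 rod markers tested 1 was called, lower, with a median of -0.90.

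Called genes were more abundant and, where they rose, had a longer implied exon length than the rest, but not a longer gene span. The median FPKM was 16.4 for the genes that rose, 14.6 for those that fell and 7.81 for all tested genes. Of the 2967 genes with a mean FPKM under 1, 0.371% rose and 0.202% fell, and of the 3780 genes at 20 to 100 FPKM, 4.5% rose and 1.64% fell. The exon length implied by count and FPKM had a median of 3.12 kb in the genes that rose, 2.54 kb in those that fell and 2.33 kb overall. Gene span had a median of 14.9 kb in the genes that rose, 14.9 kb in those that fell and 18.2 kb overall. Abundant genes and those with long exons have more counts, which makes a call easier, and the part of this was not tested. Over 4 equal groups of genes from the shortest to the longest, the share that rose went from 1.08% to 2.36%, 3.59% and 4.3%, while the share that fell stayed between 1.06% and 1.72%. With the trend on exon length removed in each library, 445 genes rose and 176 fell.

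The genes that fell included many zinc finger genes, a list made after their values were seen, so its count is a description. Of 255 tested genes named Zfp, Zscan or Zkscan, a class rich in DNA-binding repressors, 27 fell and 5 rose. That is 10.6% lower and 1.96% higher, beside 1.33% and 2.83% of all genes. The median of the list was -0.13 on the log2 scale (all genes 0.00 at 2 decimals). In the list 94 members had all ACS libraries below all control libraries, with 16 above (13% and 14% of all tested genes). Zfp84 had 58.9, 61.9 and 58.8 CPM in control, 39.9, 46.2 and 46 CPM under ACS and 54.5 to 57.6 CPM under DCS, a change of -0.44 against control (adjusted p = 0.00684) and of -0.35 against DCS (adjusted p = 0.0467). Zfp35 had 25.5, 25.6 and 23.2 CPM in control and 17.4, 18.7 and 17.4 CPM under ACS (-0.47, adjusted p = 0.00736). Zfp692, a member that rose, had 20.2, 16.9 and 21.5 CPM in control and 33.5, 34.9 and 36.1 CPM under ACS (0.83, adjusted p = 0.00184). These 3 were the members that held. Zscan2 fell by 0.48 on the log2 scale (adjusted p = 0.0118, or 0.0619 without control replicate 2). The number that fell was 2 without control replicate 2, 34 without control replicate 3 and 50 with DESeq2, while the median stayed between -0.14 and -0.12 without any 1 library. Zinc finger genes lie in clusters of similar copies among which reads can be split, so single members are uncertain.

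**Figure D5:**
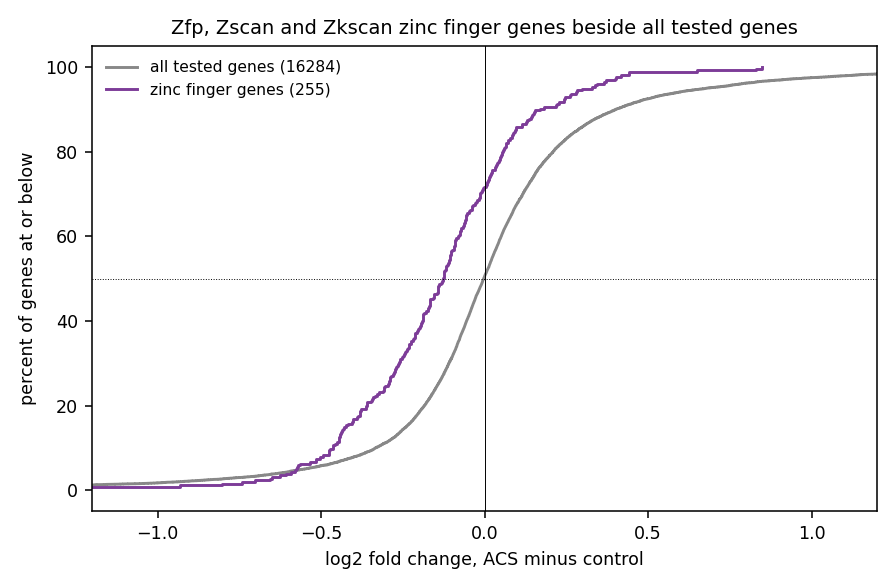
Cumulative distribution of the log2 fold change, ACS minus control, for the 255 zinc finger genes (purple) and for all 16284 tested genes (grey), with the percent of genes at or below a value on the y axis. The purple line lies to the left of the grey one over most of the range above the lowest values, with its median at -0.13, and the list was made after its values were seen.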

How the data were processed

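Polyadenylated RNA of 9 libraries was sequenced. The authors trimmed the reads (fastp in the paper, cutadapt 1.9 in the labels), aligned them with HISAT2 2.0.4 and quantified genes with StringTie 1.3.4d per the labels, which also name UMI-tools without a role. The estimated counts deposited by the authors are whole numbers that were not normalized. The FPKM values deposited beside them are scaled to exon length and library size and served for level and length. Low counts favour multiples of 4 (34.1% of counts from 1 to 15, against 20% if even), so a fragment may add 4, and the libraries would then hold 12259853 to 17172690 fragments. The table names no genome build, and its other positions are printed as it gives them.

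The counts were scaled by TMM, filtered by filterByExpr (minimum count 10, minimum total 15, 16339 entries removed) and fitted over all 9 libraries by the quasi-likelihood test of edgeR 4.0.16, with Benjamini-Hochberg adjustment over the 16284 genes of a comparison. Alternatives included DESeq2 1.42.0 and limma 3.58.1 on log2(FPKM + 1). The scripts were tested on simulated data. Where entries share a symbol, lists use the entry with the highest count. Each group had 3 libraries and replicate numbers did not pair them.

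The members and lists were chosen with earlier results of these data known. Named genes are the 15 higher and 15 lower called genes with the smallest p and groups that do not overlap, the 10 largest changes in each direction at a mean FPKM of at least 20, the 5 members with the smallest p in a list, the genes the study measured or named as hubs, and the 2 nearest on each side of the threshold. The report gives those with a described role, and some further list members, such as Jun, Srrm2 and L1cam, that were named after their values were seen. Promoters were taken from RefSeq tables and searched as letters. Some single genes are not reported here.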

Additional observations from a re-analysis of the deposited data

How the results depend on the processing

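Of 117 genes named in the text, compared under 21 alternatives, 2121 of 2454 values kept their direction and their side of the threshold, 300 kept their direction and lost the call, 21 gained a call and 12 turned in sign. The 12 belong to genes that passed under no setting. They are Akt1 (0.00189 with the exon length trend removed, -0.0428 to 0.018 when 1 library was left out), Akt2 (-0.0444 to 0.0211 when 1 was left out), Nptx2 (-0.151 to 0.0753), Ntf3 (-0.325 to 0.204) and Pik3r1 (-0.0165 to 0.0333, and -0.00309 and -0.00304 with limma at pseudocounts of 0.1 and 1).

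The number of genes called (678, with 461 higher and 217 lower) ranged from 138 to 1431 when 1 library was left out, with 116 to 881 higher and 22 to 550 lower. The libraries behind the extremes were control replicates 2 and 3. DESeq2 called 1652 genes (945 higher, 707 lower, 57.2% higher beside 68%). The fit of the 6 libraries alone gave 118 lower genes. Replicate numbers shared no deviation (correlations of 0.0179, 0.022 and -0.0532), and with the replicate block 475 genes were called, 121 of them lower. Genes past the unadjusted p and 2-fold thresholds (239) numbered 134 with counts divided by 4, 60 with limma on log2(FPKM + 1), 119 at a mean FPKM of at least 1 and 386 with no filter. Genes with groups that do not overlap (4409) numbered 4449 to 7452 when 1 library was left out, the highest without control replicate 3, and leaving out a library leaves 2 in a group, which makes overlap less likely by construction. On the scale from the control mean (0) to the ACS mean (1), control replicate 3 had a median position of 0.133, beside -0.0708 and -0.075 for the other control libraries. Genes called between DCS and control (2) numbered 1 with counts divided by 4, 1 with limma on log2(FPKM + 1), 1 with the replicate block, 38 with DESeq2 and 1 to 47 when 1 library was left out. Where not stated, the cause was not tested. The counts of early factors and speckle proteins that rose stayed within 1.5 times their main value under every alternative run. Summing entries that share a symbol, an alternative added after seeing the data, gave 681 genes. Small changes of single genes are often missed at this depth and number of libraries.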

Other observations

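Genes of DNA mismatch repair, chosen after their values were seen, were among those lower under ACS. Msh6, whose protein recognizes base mismatches, had 72.4, 77.4 and 72.8 CPM in control and 57.8, 55.7 and 61.2 CPM under ACS (-0.35, adjusted p = 0.011, or 0.0619 without control replicate 2). Mlh3 fell by 0.42 on the log2 scale (adjusted p = 0.0222, or 0.0918 without ACS replicate 2).

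Cttn, the gene of the actin-binding protein cortactin, has 2 entries on chromosome 1 of the table. The entry at 215255381 to 215290845 had 83.9, 80.8 and 84.3 CPM in control and 60.9, 92.4 and 82 CPM under DCS, and a count of 0 in all 3 ACS libraries, at least 350-fold lower than control against a floor of 12 counts (3 fragments) per ACS library. The neighbouring entry LOC103689951, at 215298161 to 215310013, had 2.87 to 5.77 CPM in control and was also at 0 in all 3 ACS libraries, at least 19.5-fold lower. The second Cttn entry, at 217602698 to 217638152, had 88.3, 83.4 and 79.9 CPM in control and 95.1, 103 and 102 CPM under ACS. The sum of both entries was 164 to 172 CPM in control, 154 to 182 CPM under DCS and 95.1 to 103 CPM under ACS. Entries with the same symbol may share reads, so the values of each Cttn entry are uncertain, and the part of this in the difference was not tested.

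Moap1, a gene of apoptosis signaling that passed the test (log2 fold change 4.28, adjusted p = 0.0392, or 0.144 without control replicate 2), was uneven within every group, with 0.112, 0.176 and 1.24 CPM in control, 8.88, 4.01 and 17.1 CPM under ACS and 1.67, 6.75 and 2.06 CPM under DCS.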
